A study of Mus musculus with 4 samples.

Results

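Adipose genes were examined together with Car3 and Tst in whole mouse lung, as a set of 10 genes that was chosen by their signal on the same 4 arrays analysed here. The set holds Car3, Tst, Adipoq, Plin1, Cfd, Retn, Lep, Ucp1, Cidea and Cidec, out of 30142 genes with a feature of 1 gene symbol. Of the 10, 9 had such a feature, each exactly 1, and Cfd had none, so Cfd was not analysed here. Because the signals on these arrays chose the genes, their values are given as a description, with no test. The arrays measured 4 groups of male C57BL mice that began the experiment at 10 weeks of age. Mainstream cigarette smoke for 2 weeks (pool of 5 mice, aged 12 weeks) was set against clean air for 2 weeks (control, pool of 5, aged 12 weeks). Smoke for 4 weeks (pool of 4, aged 14 weeks) was set against clean air for 4 weeks (control, pool of 5, aged 14 weeks). Each exposure lasted 1 h a day on 5 days a week. Each group was 1 pool on 1 array, so there was no replicate pool, no SD and no view of the spread between mice.

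Adipocytes store triglyceride in a lipid droplet coated by perilipin and enlarged by CIDE proteins, and they secrete hormones such as adiponectin, resistin and leptin. Brown adipocytes also burn lipid for heat through Ucp1. Fat tissue lies around the large airways, the heart and the mediastinum, and Car3, a cytosolic carbonic anhydrase, is a classical abundant protein of mouse adipocytes that is also made in skeletal muscle and liver. Tst encodes thiosulfate sulfurtransferase (rhodanese), a mitochondrial enzyme that turns cyanide into thiocyanate and takes part in sulfide disposal, and it is made in liver, kidney and fat.

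RefSeq promoter windows of build GRCm38.p6, from 250 bases before to 50 bases after a gene's start, were matched for 7 of the 10 genes (Adipoq, Plin1, Cfd, Retn, Lep, Ucp1 and Cidec), with 8 windows in all. The windows of Retn and Cidec are shown because both genes differed at 4 weeks, and that of Adipoq because it is the defining adipocyte hormone and held the most motif matches. Retn lies at chr8:3655520-3655819 on the plus strand, Cidec (1 of its windows) at chr6:113435711-113436010 on the minus strand, and Adipoq at chr16:23146286-23146585 on the plus strand. Capitals mark a match to a searched motif.
Retn: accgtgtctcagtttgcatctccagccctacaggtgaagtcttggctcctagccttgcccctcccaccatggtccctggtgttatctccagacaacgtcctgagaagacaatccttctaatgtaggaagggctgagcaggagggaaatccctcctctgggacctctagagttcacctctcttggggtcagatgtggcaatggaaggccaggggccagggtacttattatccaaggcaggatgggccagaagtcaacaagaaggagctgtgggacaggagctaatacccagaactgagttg
Cidec: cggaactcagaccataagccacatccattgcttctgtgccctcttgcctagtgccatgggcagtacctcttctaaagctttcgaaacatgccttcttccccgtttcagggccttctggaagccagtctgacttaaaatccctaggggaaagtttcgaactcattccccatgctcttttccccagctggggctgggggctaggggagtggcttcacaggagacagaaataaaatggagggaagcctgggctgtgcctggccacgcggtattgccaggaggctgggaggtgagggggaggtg
Adipoq: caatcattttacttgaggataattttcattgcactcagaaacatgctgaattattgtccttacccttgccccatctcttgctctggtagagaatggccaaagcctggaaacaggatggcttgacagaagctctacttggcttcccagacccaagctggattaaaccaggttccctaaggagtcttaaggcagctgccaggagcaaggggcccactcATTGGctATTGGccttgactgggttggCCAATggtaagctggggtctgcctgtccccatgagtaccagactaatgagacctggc

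Both strands of each window were searched for AGGTCA (the core motif of nuclear receptors), TATAAA (bound by the general initiation machinery), CCAAT (bound by NF-Y) and TTGCGCAA (a palindrome bound by C/EBP factors). Among 32851 RefSeq windows of 300 bases, 16.3% held AGGTCA, 13.6% TATAAA, 37.4% CCAAT and 0.183% TTGCGCAA. Counted from 1 at the 5′ end of its window, Adipoq held CCAAT at 244 to 248 on its own strand, and on the opposite strand at 217 to 221 and 224 to 228. Ucp1 held AGGTCA at 237 to 242, and Lep held TTGCGCAA at 196 to 203. No match to these letters was found in the windows of Retn, Cidec, Plin1 or Cfd.

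The label of the set was met in part by the data. Signals are given as log2 of the deposited intensity, and a gene counted as above the floor when its mean log2 signal passed the 40th percentile of all genes, 5.82, which left 18084 genes. Of the 9 measured genes, 7 were above this floor, while Lep (leptin, the hormone of fat stores) and Ucp1 were under it. Plin1 and Cidea, which coat and enlarge lipid droplets, had mean signals close to the floor. Car3, Tst, Retn and Cidec were the only genes of the set that differed by 1.5-fold (0.585 on the log2 scale) between a smoke pool and its control. The base of the deposited linear scale is not known, and with base e each log2 difference below would be multiplied by 0.69.

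Car3 had a log2 signal of 11.22 in the 2-week smoke pool, against 10.30 in the 2-week control. At 4 weeks it had 10.63 in the smoke pool, against 11.63 in the control. Car3 was thus 1.90-fold higher with smoke at 2 weeks (log2 difference 0.93) and 2.01-fold lower with smoke at 4 weeks. Both smoke pools lay between the control pools, which were themselves further apart than either smoke pool was from its control. Car3 was 2.52-fold higher at 4 than at 2 weeks of clean air (log2 difference 1.34).

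Tst had a log2 signal of 8.91 in the 2-week smoke pool, against 8.05 in the 2-week control. At 4 weeks its signal was 9.11 in the smoke pool, against 10.13 in the control. The smoke difference was 0.86 at 2 weeks (1.81-fold higher) and -1.03 at 4 weeks (2.04-fold lower). As for Car3, the control pools gave the lowest and the highest value, 4.24-fold apart (log2 difference 2.09, 4 minus 2 weeks), while the smoke pools differed by 0.20. The 4-week control pool enters both the smoke difference at 4 weeks and the difference between controls, so these values are not independent.

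Cidec, which promotes fusion of lipid droplets in white adipocytes, had log2 signals of 7.56 in the 2-week smoke pool and 7.49 in its control, and of 7.35 in the 4-week smoke pool and 8.28 in its control. The 4-week control stood apart from the other pools, with Cidec 1.90-fold lower in the smoke pool at 4 weeks (log2 difference -0.92) and 1.05-fold higher at 2 weeks (0.08). Retn, the gene of resistin, an adipocyte hormone of mice, had 7.46 in the 2-week smoke pool and 7.27 in its control, and 7.06 in the 4-week smoke pool and 7.72 in its control. Retn was 1.58-fold lower with smoke at 4 weeks (log2 difference -0.66), with a difference of 0.20 at 2 weeks. Like Car3 and Tst, Cidec and Retn had their highest signal in the 4-week control pool.

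**Figure D1:**
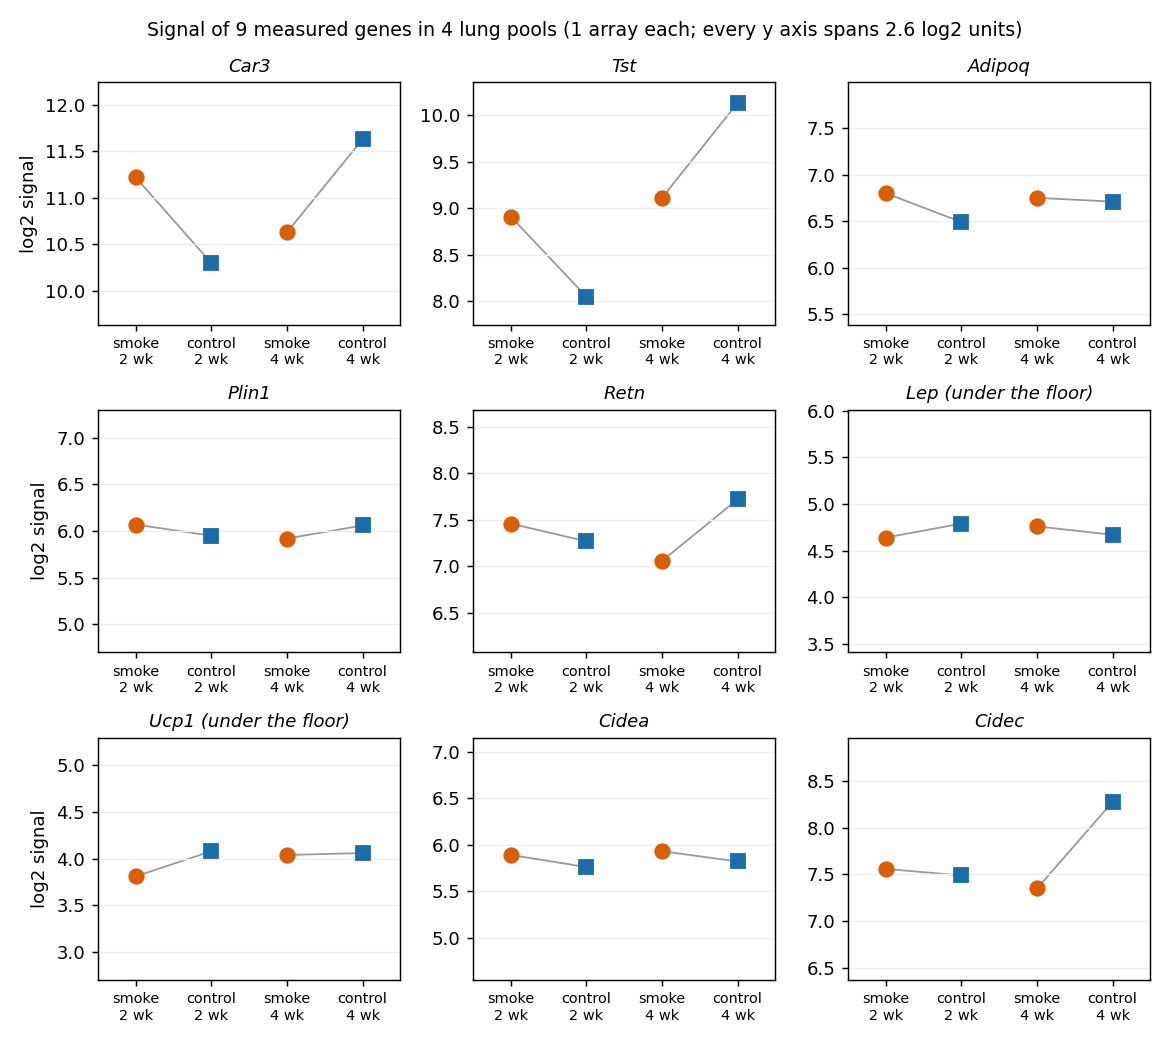
Log2 signal of the 9 measured genes (vertical axes, all of equal span) in the 4 lung pools, 1 array each; orange circles are smoke pools, blue squares control pools, and lines join a smoke pool to its control. Car3, Tst, Retn and Cidec are highest in the 4-week control pool, while Adipoq, Plin1, Cidea, Lep and Ucp1 have ranges of 0.31 or less.

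Adipoq and Plin1 differed less between pools than Cidec and Retn. Adipoq, the gene of adiponectin, had 6.80 in the 2-week smoke pool and 6.49 in its control, and 6.75 in the 4-week smoke pool and 6.71 in its control. Its smoke differences were 0.31 at 2 weeks and 0.04 at 4 weeks. Plin1, perilipin of the large droplet, had 6.07 and 5.95 at 2 weeks in smoke and control, and 5.92 and 6.06 at 4 weeks in smoke and control. Its smoke differences were 0.12 at 2 weeks and -0.14 at 4 weeks. Adipoq was lowest in the 2-week control and nearly level in the other pools, and Plin1 had no pool apart from the rest. Under median centring the 4-week difference of Adipoq was -0.02, so its direction there is not settled.

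Cidea and Ucp1, the brown adipocyte genes of the set, and Lep, the leptin gene, stayed near or under the floor. Cidea, a CIDE protein of brown fat, had 5.89 in the 2-week smoke pool and 5.76 in its control, and 5.93 in the 4-week smoke pool and 5.82 in its control. Ucp1 had 3.81 and 4.08 at 2 weeks in smoke and control, and 4.04 and 4.06 at 4 weeks. Lep had 4.64 and 4.79 at 2 weeks in smoke and control, and 4.76 and 4.67 at 4 weeks. For each of these 3 genes the pools lay within 0.27 of each other.

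Across the 4 pools, the range of log2 signal was 2.09 for Tst and 1.34 for Car3, against a median of 0.28 over the 18084 genes above the floor. Only 0.321% of these genes had a larger range than Tst, and 1.17% had a larger one than Car3. For Cidec, with a range of 0.92, the share was 3.35%, and for Retn, with 0.66, it was 8.78%. Adipoq (0.31, with 43.7% of genes larger), Ucp1 (0.27), Cidea (0.17), Lep (0.15) and Plin1 (0.15) had ranges common among all genes. The genes were picked on these signals, so the shares are no test.

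At 2 weeks, 2 genes of the set, Car3 and Tst, were at least 1.5-fold higher in the smoke pool, where 1.82% of all genes above the floor were. The largest difference short of that limit was 0.31 (Adipoq). At 4 weeks, Car3, Tst, Retn and Cidec were at least 1.5-fold lower in the smoke pool, where 1.5% of all genes were, and the median over the 7 genes above the floor was -0.66, against -0.02 for all genes. Between the controls, Car3, Tst and Cidec were at least 1.5-fold higher at 4 than at 2 weeks, where 1.85% of all genes were. Between the smoke pools only Car3 was at least 1.5-fold lower at 4 than at 2 weeks (log2 difference -0.60), where 1.79% of all genes were. Since the set was chosen on these signals, nothing is read from its counts against those shares.

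**Figure D2:**
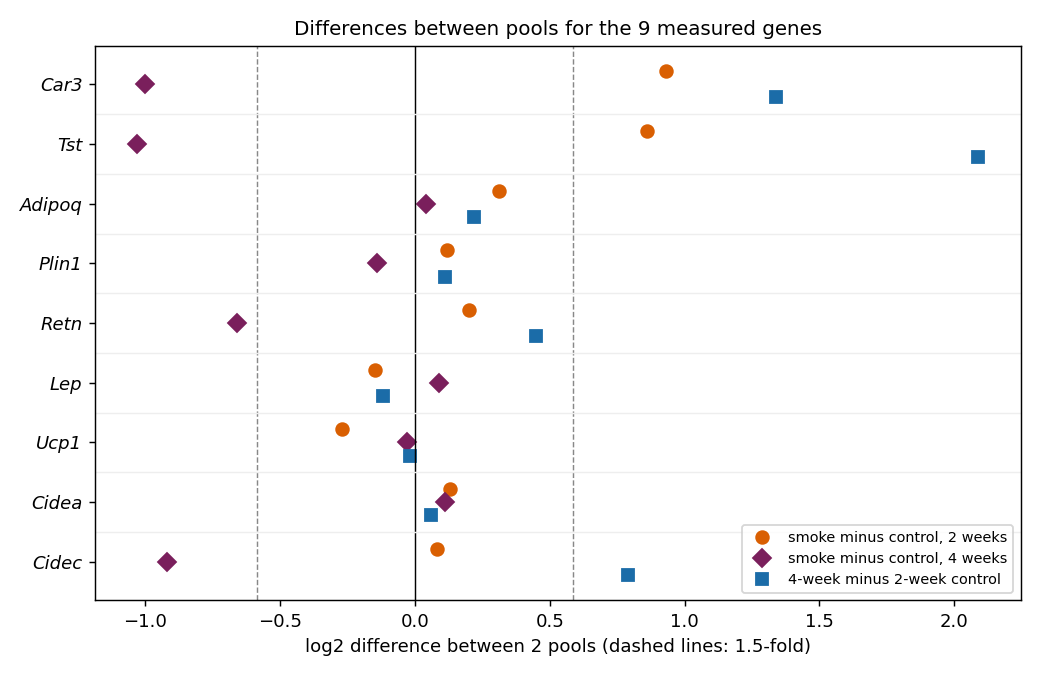
Log2 differences of the 9 measured genes (horizontal axis) for smoke minus control at 2 weeks, smoke minus control at 4 weeks, and 4-week minus 2-week control; each point is 1 difference between 2 arrays, and dashed lines mark 1.5-fold. Car3 and Tst lie past the line on opposite sides at 2 and 4 weeks, and the difference between controls is the largest of the 3 for both.

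Of the 18084 genes, 329 (1.82%) were at least 1.5-fold higher with smoke at 2 weeks, and 272 (1.5%) at least 1.5-fold lower at 4 weeks. Both held for 5 genes (0.0276%). Whether 5 is more than unrelated differences would share was not tested, and Car3 and Tst were chosen on these signals. The 5 genes were Car3, Tst, Nppa (atrial natriuretic peptide, a cardiomyocyte hormone), Cyp2e1 (a cytochrome P450 of liver, fat and lung that oxidises ethanol) and Gm22090. Nppa had a log2 signal of 10.19 in the 2-week smoke pool and 9.15 in its control, and 9.77 in the 4-week smoke pool and 11.39 in its control. Cyp2e1 had 10.23 in the 2-week smoke pool and 9.64 in its control, and 9.93 in the 4-week smoke pool and 10.76 in its control, with differences of 0.59 and -0.83. Both genes repeated the order of Car3, with both smoke pools between the control pools, an order that the choice of these genes fixed in part.

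**Figure D3:**
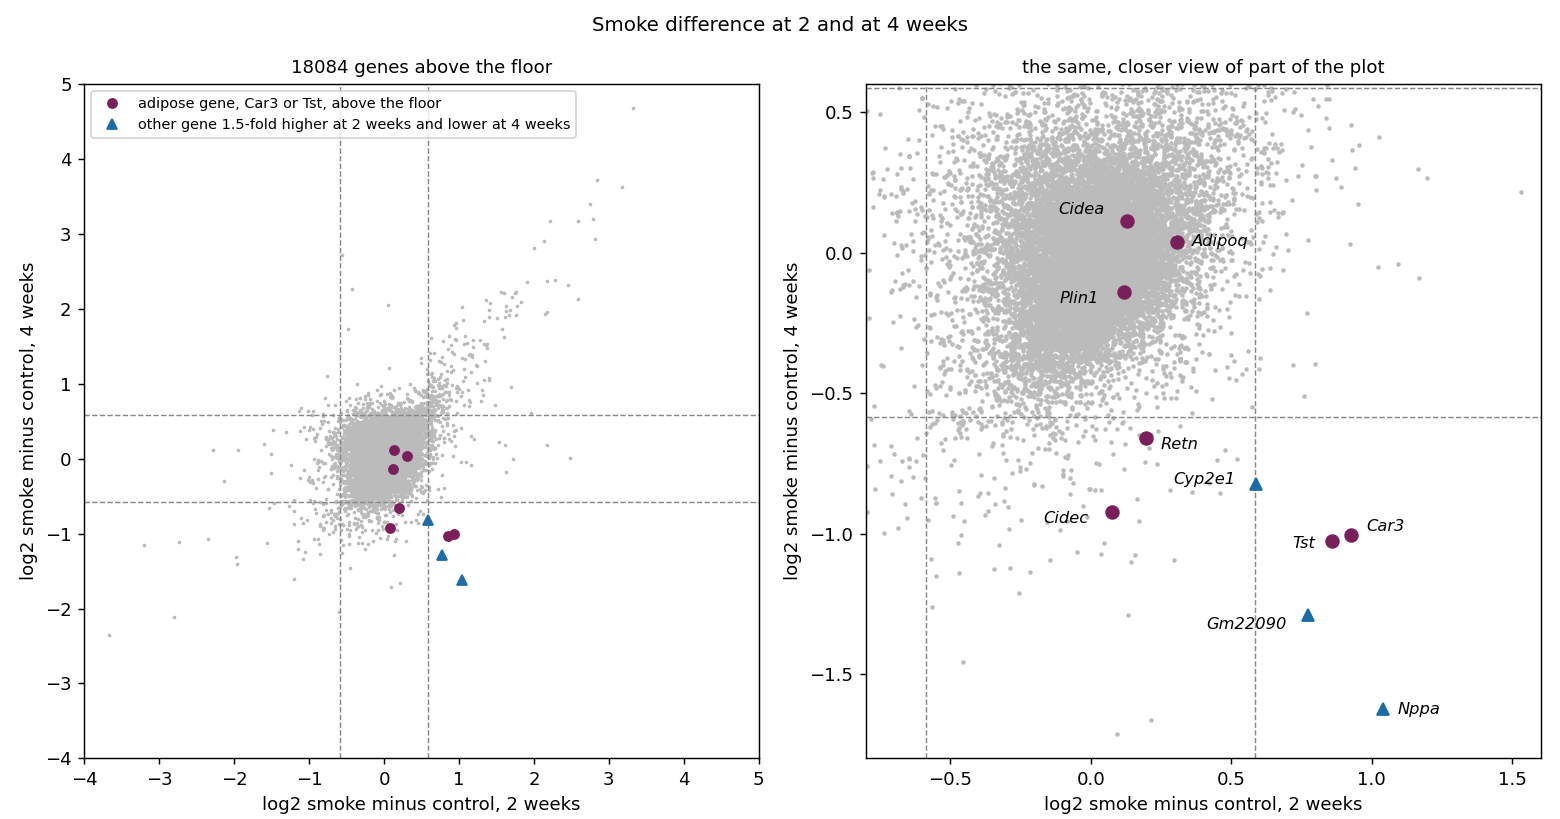
Log2 smoke minus control at 2 weeks (horizontal) against 4 weeks (vertical) for the 18084 genes above the floor, in grey, with a closer view of part of the plot on the right; purple circles are the 7 genes of the set above the floor, blue triangles the 3 other genes 1.5-fold higher at 2 weeks and lower at 4 weeks, and dashed lines mark 1.5-fold. Car3 and Tst sit in the sparse lower right with Nppa, Gm22090 and Cyp2e1, and Adipoq, Plin1 and Cidea lie inside the dense cloud.

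The genes whose profile lay nearest to that of Car3 were Cyp2e1, Gm22090, Igkv17-121, Mif, Mustn1 and Snord64, at root mean square differences of 0.137 to 0.203 between profiles centred on their mean over the 4 arrays. Those nearest to Tst were Lrrc26, Nppa, Krtcap2, Gm22090, Cox6a2 and Gm16379, at 0.235 to 0.332. Within the set, Cidec (0.305), Retn (0.334) and Tst (0.387) were nearer to Car3 than Adipoq (0.451) and Plin1 (0.461) were. The median profile over all 9 measured genes, Lep and Ucp1 under the floor included, was close to flat. Medians of the single genes' smoke differences are another measure, not differences of that profile. They were 0.13 at 2 weeks and -0.14 at 4 weeks over these 9 genes. Over the 7 above the floor they were 0.20 and -0.66. Alkbh6, the gene nearest to the profile, had smoke differences of 0.14 and -0.02. The genes nearest to that profile of 9, Alkbh6, Anxa9, Rtf2, Ptpn9, Fank1 and Ift52, lay within 0.01 of it. With 4 arrays, many genes share a profile, and nothing on shared function is drawn from it.

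Other adipocyte genes were examined through lists of known genes. In bulk lung RNA, fewer cells of a type and less RNA per cell cannot be told apart. Every gene above the floor was fitted with limma for an effect of smoke common to both durations, with a term for duration. The fit keeps 1 residual degree of freedom, and Benjamini-Hochberg adjustment ran over all 18084 genes. Its error is the gap between the smoke differences at 2 and 4 weeks, moderated across genes, not the spread between pools of 1 group. In that fit 1.15% of genes rose and 0.315% fell. A gene passes it where its mean smoke difference is large relative to the gap between its differences at 2 and 4 weeks, and Car3 and Tst had differences of opposite sign.

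Of 25 other genes of white and general adipocytes, 23 were measured and 19 were above the floor, and 0 passed limma in either direction. Their median smoke difference was 0.09 at 2 weeks and -0.02 at 4 weeks, against 0.01 and -0.02 for all genes. Between the controls, 17 of the 19 were higher at 4 than at 2 weeks, where 9420 of all 18084 genes were. The median was 0.24, against 0.01 for all genes. Under either median centring or cyclic loess scaling 18 of 19 were higher, but the median of all genes also moved, to 0.08 and 0.06. Car3, Tst and Cidec were also higher between the controls, but they were chosen on these signals, so this adds nothing to the count. Lipe, hormone-sensitive lipase, had the shape of Cidec, with a smoke difference of 0.04 at 2 weeks and -0.52 at 4 weeks, where it had 9.13 in the smoke pool and 9.65 in the control. Pnpla2, adipose triglyceride lipase, had 11.47 in the 2-week smoke pool and 11.10 in its control, and 11.82 in the 4-week smoke pool and 11.84 in its control. Fabp4, a fatty acid carrier of adipocytes, macrophages and capillary cells, differed by 0.57 at 2 weeks and 0.03 at 4 weeks. Pparg, the master regulator of fat cell formation and also a factor of alveolar macrophages, was 0.38 and 0.39 higher with smoke at 2 and 4 weeks, with a smoke effect of 0.38 ± 0.100 (SE) and an adjusted p of 0.185 by limma. Sncg, a synuclein made in fat and nerve, had 0.51 ± 0.115 and an adjusted p of 0.125 by limma.

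Adig, Acvr1c, Pnpla3 and Aqp7 were under the floor. The signal summed over the white and general adipocyte genes above the floor without Cd36, 18 genes, was 16852 in the 2-week smoke pool and 15551 in its control, and 19227 in the 4-week smoke pool and 19497 in its control. Ces1d, a carboxylesterase, made up 6723 and 6558 of the 2-week sums and 7377 and 7503 of the 4-week sums in smoke and control, so the sums say little of genes with lower signal such as Lipe. With Cd36, a fatty acid transporter that lung capillaries and macrophages also make, the sum was 156881 in the 2-week smoke pool and 180833 in its control, and 146152 in the 4-week smoke pool and 164520 in its control.

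The lipogenic enzymes, which build fatty acids and triglycerides, had 11 of 12 measured genes above the floor and 0 that passed limma. Between the controls 7 of the 11 were higher at 4 than at 2 weeks (median 0.11), where 9420 of all 18084 genes were. All 11 were higher under median centring and under cyclic loess scaling. These scalings also moved the median of all genes from 0.01 to 0.08 and 0.06, so the rise to 11 is not read as a result. Fasn, fatty acid synthase, differed by 0.22 at 2 weeks and 0.07 at 4 weeks. Agpat2, an acyltransferase of triglyceride synthesis whose loss causes lipodystrophy, had smoke differences of 0.21 at 2 weeks and -0.30 at 4 weeks. Lpin1, a phosphatidate phosphatase, had -0.25 and -0.43. Of 14 measured brown adipose genes, 8 were above the floor and 0 passed. With smoke at 4 weeks 7 of 8 were lower (median -0.18), as were 9678 of all 18084 genes (median -0.02). Cox8b, Elovl3, Dio2, Otop1, Zic1 and Slc27a2 were under the floor. Ppargc1a, a coactivator that drives mitochondrial biogenesis, had a smoke effect of -0.48 ± 0.120 and an adjusted p of 0.171 by limma. Over these 3 adipose lists, 0 of 38 genes passed limma. An unadjusted limma p under 0.05 was found for 7 of the 38, and for 2102 of all 18084 genes, so the 7 are not read as a result.

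Relatives of Car3, Tst, Cidec and Retn were followed as well. Of 15 carbonic anhydrases other than Car3, 8 were above the floor and 0 passed limma. Car5b, the mitochondrial form, shared the signs of Car3, with differences of 0.28 at 2 weeks and -0.19 at 4 weeks, and Car2 and Car4 lay at -0.24 and 0.26 at 2 weeks and -0.29 and 0.26 at 4 weeks. Among 8 genes of sulfide oxidation and sulfur amino acid metabolism, which share substrates with Tst, 0 passed limma. Suox, sulfite oxidase, had differences of 0.31 and -0.09 at 2 and 4 weeks, and Ethe1, a persulfide dioxygenase, had 0.36 and 0.00. Mpst, the paralogue of Tst, had 0.22 and 0.38.

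Among the lipid droplet relatives, Plin2, the perilipin of non-adipose cells, had 13.41 in the 2-week smoke pool and 13.17 in its control, and 13.99 in the 4-week smoke pool and 13.40 in its control. Cideb, the CIDE protein of liver, had smoke differences of 0.42 and 0.45, and its adjusted p by limma was 0.140. Of the resistin family, Retnla rose with smoke, with 14.38 in the 2-week smoke pool and 11.92 in its control, and 14.78 in the 4-week smoke pool and 12.47 in its control. Its smoke effect was 2.39 ± 0.104 and its adjusted p by limma was 0.000856, and Retnla was higher at both durations, unlike Retn. Retnlg, a granulocyte member, had 9.24 in the 4-week smoke pool and 10.14 in its control. Cdh13, which binds adiponectin, differed by 0.00 at 2 weeks and -0.54 at 4 weeks.

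Markers of other tissues were followed with the set. Of 7 mesothelial markers above the floor, from the cells that line the pleura, all 7 were lower with smoke at 4 weeks (median -0.57). All 7 were higher in the control pool of 4 weeks than in that of 2 weeks (median 0.65). Of all 18084 genes, 9678 were lower with smoke at 4 weeks (median -0.02) and 9420 were higher between the controls (median 0.01). The mesothelial counts were the same under median centring and cyclic loess scaling, and Wt1 was under the floor. The summed signal of the 7 markers was 13043 in the 2-week smoke pool and 12766 in its control, and 12671 in the 4-week smoke pool and 16543 in its control. Krt19 made up 5534 and 4690 of the 2-week sums and 5874 and 6187 of the 4-week sums in smoke and control. Upk1b made up 4799, 5698, 4295 and 6392 in the same order, so the sums say little of markers with lower signal. Lrrn4 had 8.43 and 9.34 at 4 weeks in smoke and control, and Upk3b had 10.37 and 11.12. Both comparisons hold the 4-week control pool, so the 2 mesothelial counts are not independent. Between the smoke pools, a comparison without that pool, the mesothelial median was -0.04 (0.02 with cyclic loess). Car3, Tst, Retn and Cidec had the same directions in both comparisons, but they were chosen on these signals, so nothing is read from this. The part of mesothelial cells in the differences of these genes was not tested.

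Of 10 cardiac muscle markers above the floor, all 10 were lower with smoke at 4 weeks (median -0.47) and 9 of 10 were lower at 2 weeks (median -0.30). Nppa was the exception at 2 weeks, and both counts were the same under median centring and cyclic loess scaling. Of all 18084 genes, 9678 were lower with smoke at 4 weeks (median -0.02) and 8793 at 2 weeks (median 0.01). Between the controls 6 of the 10 cardiac markers were higher at 4 than at 2 weeks (median 0.16), as were 9420 of all 18084 genes (median 0.01). The summed cardiac signal was 11491 in the 2-week smoke pool and 14052 in its control, and 10435 in the 4-week smoke pool and 18302 in its control, with Myl2 under the floor. Skeletal muscle markers summed to 482 to 537 in the 4 pools, and Myh1, Myh2, Myh4, Pvalb and 4 others of the 13 were under the floor. Of 9 measured liver markers, 3 were above the floor (Cyp2e1, Fgg and Alb), and Apoa1, Apoa2, Apob, Ttr, Fgb and Tat were under it. All 3 were lower with smoke at 4 weeks (median -0.32) and higher at 4 than at 2 weeks in the controls (median 0.42), while at 2 weeks of smoke Cyp2e1 differed by 0.59, Fgg by 0.18 and Alb by -0.28. The summed signal of these 3 genes was 1314 in the 2-week smoke pool and 915 in its control, and 1090 in the 4-week smoke pool and 1867 in its control. Cyp2e1, which fat and lung also make, gave 1203 and 800 of the 2-week sums in smoke and control. It gave 976 and 1729 of the 4-week sums, so the sums say little of Fgg and Alb. Alb, albumin, had 5.66 in the 2-week smoke pool and 5.93 in its control, and 5.80 in the 4-week smoke pool and 6.05 in its control, so its signal stood near the floor throughout. Of the mesothelial, cardiac, skeletal muscle and liver markers, 0 passed limma. Markers whose smoke differences at 2 and 4 weeks had opposite signs, such as Upk3b (0.24 and -0.75) and Cyp2e1 (0.59 and -0.83), could hardly pass. For such markers the 0 says little. The atrial myosin gene Myh6 had a smoke effect of -0.59 ± 0.101 and an adjusted p of 0.0556 by limma. This depended on the setting: Myh6, Sln and Tnnt2 passed with median centring, and Myh6 and Sln with a floor at the 60th percentile. Among protein-coding genes only, Myh6, Myh7, Ryr2, Sln, Tnnt2 and Upk1b passed. For the liver markers too, the smoke difference at 4 weeks and the difference between controls share the 4-week control pool. The part of cardiac and liver tissue in the differences of Car3 and Tst was not tested.

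**Figure D4:**
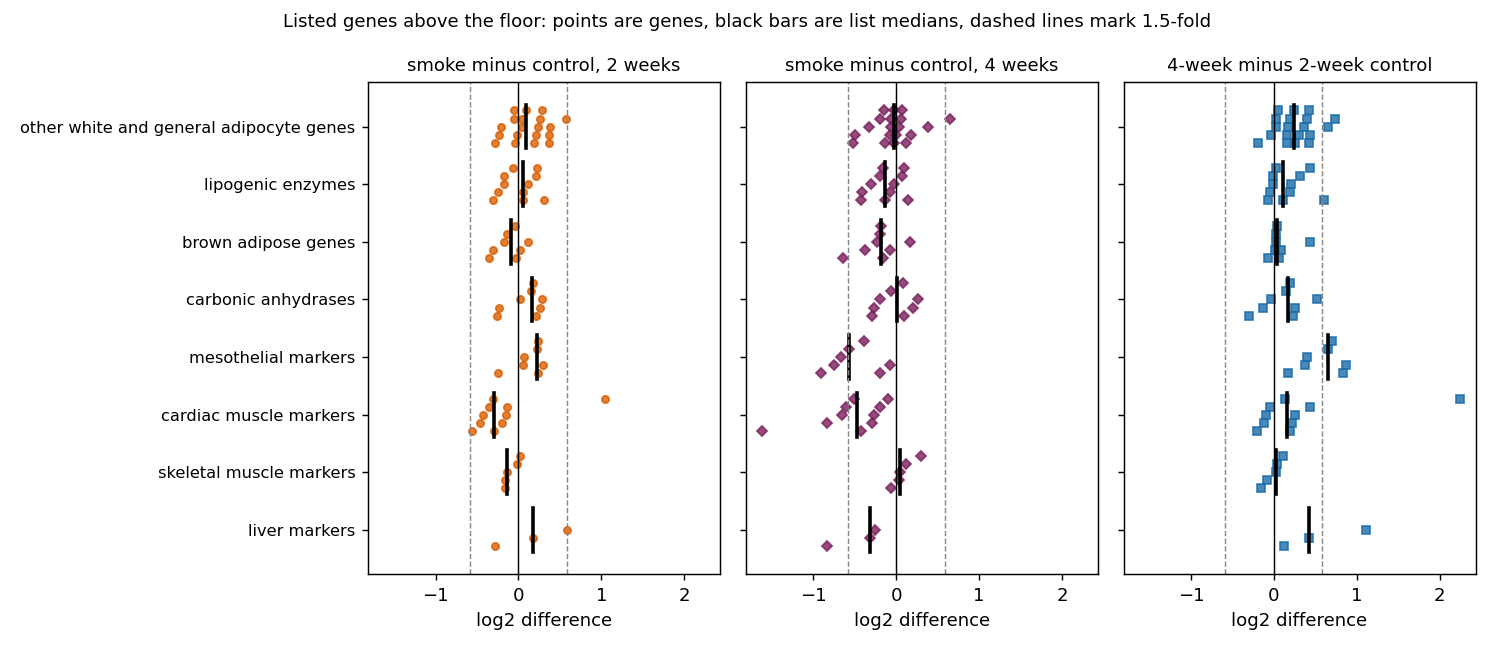
Log2 differences of listed genes above the floor (horizontal axes, same scale) for smoke minus control at 2 weeks, smoke minus control at 4 weeks and 4-week minus 2-week control; each point is a gene, black bars are list medians and dashed lines mark 1.5-fold. The other adipocyte genes have medians of 0.09 and -0.02 with smoke at 2 and 4 weeks and of 0.24 between controls, and the mesothelial markers have 0.22, -0.57 and 0.65 in the same order.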

How the data were processed

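Lung RNA of 4 pools was measured on 1 Affymetrix array each. The deposited values are linear intensities, made by the authors with Affymetrix Expression Console 1.4.1 through RMA (per the submitters' processing notes), which equalises the arrays' distributions and so removes a shift of all genes in 1 pool. Array medians were 58.8 to 61.7. No source used here gives the array's genome build. The number of arrays limits the precision. Log2 of the intensities was taken. No source used here gives the base of the linear scale, and 541 to 581 features per array exceeded 65535, the largest value of a scan; if the base was e, every log2 difference given here would be multiplied by 0.69.

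Of 65956 features, 30604 had 1 symbol in the array annotation, 2146 had several and 33206 were not listed. Symbols were updated by Entrez ID (22818 matched, 827 changed), and the feature with the highest mean was used for the 355 genes with several. The table held 0 columns of other samples. Differences between pools were counted at 1.5-fold with no test. Over all genes above the floor, limma 3.58.1 in R 4.3.3 (lmFit, eBayes, smoke plus duration, Benjamini-Hochberg, adjusted p limit 0.05) tested the smoke effect. The fit was first run on simulated arrays with independent noise and a smoke effect equal at both durations. That check says nothing of genes whose smoke effect changed with duration. The limma p-values are not given for the set, which its own signals chose. The set's members and the gene lists were chosen with earlier results of these data known. Lists covered white adipocyte, lipogenic, brown adipose, sulfur, carbonic anhydrase, lipid droplet, resistin, cardiac and skeletal muscle, mesothelial, liver, thymus and lymph node, lung epithelial, alveolar macrophage and fibroblast genes, which share a few members. The rule for naming took all genes of the set, up to 6 genes of each list with the largest range over the pools, every list gene past limma, and the 6 nearest profiles to Car3, Tst and the set's median (a gene under the floor is named only as such). Cd36 and Ces1d were named after their values were seen. Alternatives changed the scaling, the floor, the limit, the log base, the duration term and the gene class, and left out each pool.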

Additional observations from a re-analysis of the deposited data

Results flagged for a closer look

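For 5 genes the smoke difference was past 1.5-fold in one direction at 2 weeks and past it in the other at 4 weeks, and the 4-week minus the 2-week smoke difference marks them for a closer look. It was -1.93 for Car3, -1.89 for Tst, -2.66 for Nppa, -1.41 for Cyp2e1 and -2.06 for Gm22090 (log2). With 1 pool per group, this difference between durations was not tested. In each of the 5 the highest signal was in the 4-week control pool and the lowest in the 2-week control pool.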

How the results depend on the processing

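No paired analysis was possible because each group had 1 pool, so the groups compared share only 1 replicate number. No difference of the 9 genes past 1.5-fold changed sign under cyclic loess scaling or median centring, which shifts all genes of an array alike; the natural log base cannot turn a sign, and the mean of all features is the same value for genes with 1 feature. Smaller ones did for 3 genes: Adipoq at 4 weeks (-0.02 with median centring, against 0.04), Ucp1 between controls (0.05 with median centring, against -0.02) and Cidea between the smoke pools (-0.01 with cyclic loess, against 0.04). With a 2-fold limit, 0 of the set passed at 2 weeks, 2 (Car3 and Tst) at 4 weeks and 0 between the smoke pools. Between the smoke pools the count was also 0 under cyclic loess and under the natural log base, against 1 in the values given. With the natural log base, 3 of the set (Car3, Tst and Cidec) passed 1.5-fold at 4 weeks, where Retn had -0.46. Between the controls 2 (Car3 and Tst) passed with that base, against 3 in the values given, and Cidec had 0.55. The number of list genes that passed limma was 7 of 119, against 5 with cyclic loess and 0 without the duration term. Median centring gave 13, adding Cd3e, Col1a1, Myh6, Sln, Sncg and Tnnt2. A floor at the 60th percentile gave 10 of 90, adding Col1a1, Myh6 and Sln. Protein-coding genes only gave 25, adding to those of median centring Acaca, Cd4, Cdo1, Cideb, Hopx, Myh7, Plin2, Pparg, Ppargc1a, Ryr2, Thrsp and Upk1b. Leaving out a pool leaves no residual degree of freedom with the duration term, so those fits also dropped it and changed both choices at once; they gave 0 to 2. In the adipocyte, lipogenic and brown lists it was 0 of 38, against 1 (Sncg) with median centring and 5 (Acaca, Pparg, Ppargc1a, Sncg and Thrsp) among protein-coding genes. Over all genes, limma called 208 up and 57 down; median centring gave 375 and 210, cyclic loess 64 and 8, a floor at the 60th percentile 263 and 116, protein-coding genes only 565 and 317, and no duration term 0 and 0, with 1163 at an unadjusted p under 0.05. Leaving out a pool, again without the duration term, gave 0 rose and 0 fell without either smoke pool, 4 and 2 without the 2-week control and 25 and 9 without the 4-week control, to be set beside the 0 of 4 pools without that term. The cause was not tested. A signal at or under the floor limits Lep and Ucp1.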

Other observations

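Lists outside the fat and muscle genes were measured in the same pools. Of 8 alveolar macrophage markers above the floor, 5 rose with smoke by limma: Marco, a scavenger receptor (smoke effect 2.70 ± 0.214 (SE), adjusted p 0.00466), Cd68, a lysosomal protein (2.28 ± 0.107, 0.00113), Atp6v0d2 (1.96 ± 0.113, 0.00184), Itgax (1.93 ± 0.134, 0.00286) and Mrc1 (0.78 ± 0.125, 0.0444), all higher with smoke at both durations. Of 11 lung epithelial markers above the floor, Sftpd, surfactant protein D, rose (1.03 ± 0.144, adjusted p 0.0303 by limma), and the list median was 0.02 at 2 weeks and -0.01 at 4 weeks.

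Of 6 thymus and lymph node markers and 7 fibroblast and adipocyte progenitor markers above the floor, 0 passed limma. With median centring Cd3e and Col1a1 passed, and among protein-coding genes only, Cd3e, Cd4 and Col1a1 did. Cd3e, of the T cell receptor complex, had 8.42 in the 2-week smoke pool and 7.48 in its control, and 8.66 in the 4-week smoke pool and 8.36 in its control. Col1a1, a collagen chain, was 0.54 and 0.53 higher with smoke at 2 and 4 weeks, with an adjusted p of 0.0749 by limma.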
